A study of Glycine max with 6 samples.

Results

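Glutathione transferases (GSTs) and antioxidant enzymes were examined in soybean (Glycine max) roots grown with sufficient Fe. The genes were taken by name alone: every clone on the array with a single gene symbol beginning with GST, PRX, APX or SOD was kept, whatever its signal. This gave 33 clones of 19 genes, out of 1091 named clones of 527 genes among 18297 clones of the 3 unigene sets printed. There were 6 tau GST genes (GSTU, 8 clones), 2 phi GST genes (GSTF, 5 clones), 4 other GST genes (6 clones), 4 peroxidase genes (PRX, 8 clones), 2 ascorbate peroxidase genes (APX, 5 clones) and 1 superoxide dismutase gene (SODB, 1 clone).

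The lines compared were IsoClark, which is Fe inefficient, and Clark, which is Fe efficient. They are near-isogenic lines (NILs): per the study's methods, IsoClark carries the inefficiency of the cultivar T203 in a background made by repeated backcrossing to Clark, so the lines share most of their genome and stand for 1 pair of genotypes. Both were grown in Fe sufficient hydroponics, and every sample combined the roots of plants that shared 1 hydroponic unit. There were 3 biological replicates, each hybridized on 2 arrays with the Cy3 and Cy5 dyes exchanged, for 6 arrays in all, and both lines were on every array. The dye of each line was taken from the label field, and for 2 arrays another source differs from it: the protocol text of the replicate 2 array with IsoClark in Cy5 names the dyes the other way round, and the authors' ratio column for Cy3-labelled IsoClark of replicate 3 runs opposite to the other columns. Every sign and order below that rests on those arrays depends on their labels, and values with an array turned are given for some of them only.

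Respiration and other oxidations in root cells release superoxide and hydrogen peroxide. Superoxide dismutases turn superoxide into hydrogen peroxide, ascorbate peroxidases reduce hydrogen peroxide to water at the expense of ascorbate, and the secreted peroxidases of the cell wall oxidize phenolic compounds with it. GSTs join the tripeptide glutathione, or in many legumes its relative homoglutathione, to reactive compounds and herbicides, and the tau and phi classes make up most of the family in plants. Peroxidases carry heme, and superoxide dismutases carry metals that include Fe, so these enzymes are often followed in studies of Fe supply.

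No gene of the list passed the test between IsoClark and Clark. Of the 33 clones, 23 clones of 17 genes could be tested, and 0 passed an adjusted p of 0.05 in limma, which was also the count among all 13430 clones tested (0.0%). Ratios are given as log2 of IsoClark over Clark, averaged over the swap pair of each replicate and then over 3 replicates. The mean ratio of the 23 clones lay between -0.24 and 0.22, and the adjusted p in limma between 0.796 and 0.997. The 95% intervals were bounded: over the 23 clones the lowest limit was -0.64 and the highest 0.55, so each interval lay inside a 2-fold difference in either direction, as did 97.9% of the intervals of all clones tested. These intervals take the labelled dyes as given, and use a spread between replicates that limma draws toward a value shared by all clones tested. Over all clones tested, ratios correlated at r of 0.079, -0.028 and 0.102 between replicates 1 and 2, 1 and 3, and 2 and 3. Within the swap pairs of replicates 1, 2 and 3, r was 0.132, -0.045 and -0.094. No tested clone of the list had an unadjusted limma p under 0.05, which 5.53% of all clones reached.

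**Figure D1:**
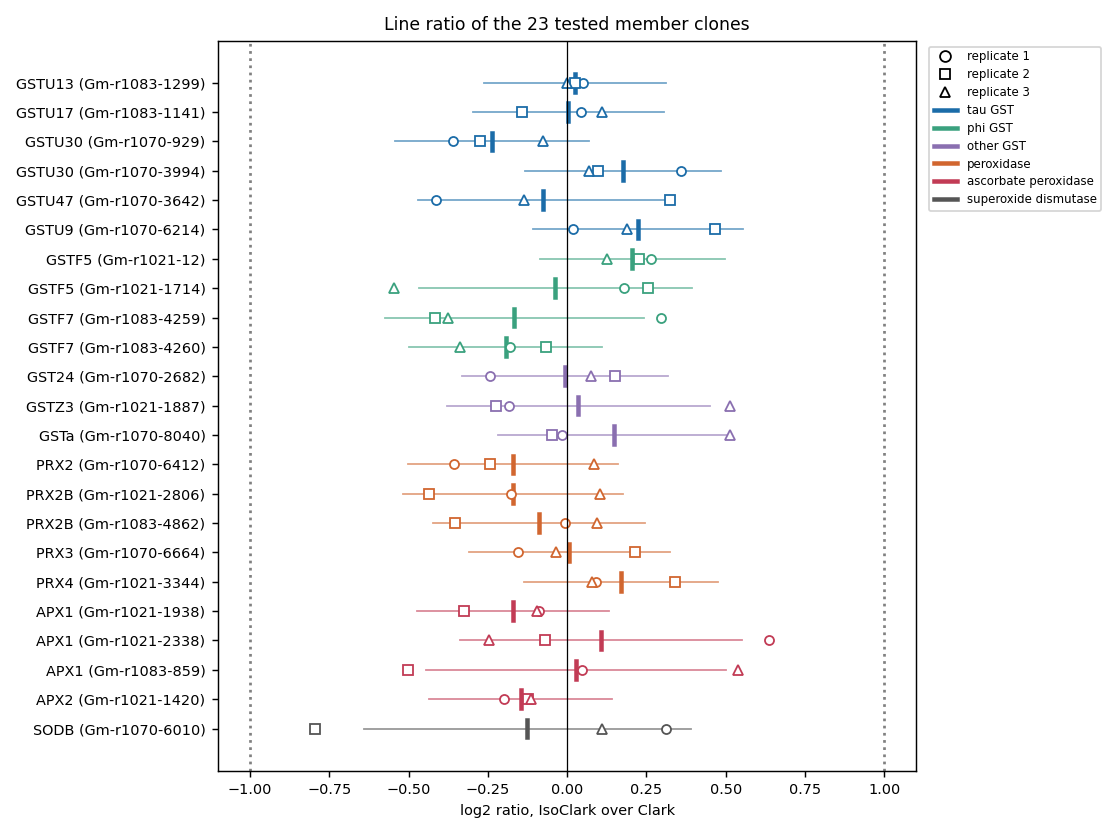
Line ratio of the 23 tested clones, as log2 of IsoClark over Clark on the horizontal axis, with 1 row per clone. Open symbols are the 3 replicates, thick bars their means, thin lines the 95% limma intervals and dotted lines a 2-fold difference. All intervals reach over 0 and none reaches a dotted line.

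The 10 clones left out of the test were not all dim. Of these, 9 had no usable spot in at least 1 replicate, because the spots were flagged as poor in the image analysis, and 1 clone of PRX2 was too close to background. GSTL3 and GSTU41 had no tested clone. Poor flags covered 55 of the 198 spots of the 33 clones, or 27.8%, against 29.3% of all cDNA spots averaged over the arrays. A spot counted as above background when its mean signal exceeded the local background median by 2 background SD. By this measure 168 of the 198 spots (84.8%) were above background in IsoClark and 175 (88.4%) in Clark, against 86.9% in IsoClark and 87.9% in Clark for all cDNA spots. Both lines were above background on all 6 arrays for 16 of the 33 clones.

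Of the 551 blank or empty spots, 7.55% also exceeded that limit, averaged over arrays and channels. The labelled tissue could not be checked with a root-defining gene, since none was on the marker list. Of the genes listed for other tissues, N-36A for nodules had 1 clone, CAB3, ELIP and PSAD for photosynthetic tissue had 11 clones, and the seed proteins BBI, GM2S-1, GY1 to GY5 and KTI-2 had 14 clones. All 26 lay above background on at least 3 arrays in IsoClark and in Clark. The ratios of the tested clones ran from -0.20 to 0.23 for photosynthetic tissue and from -0.46 to 0.80 for seed, with 0 clones passing the test. Their part in the results was not tested.

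How brightly a clone hybridized was expressed as its signal percentile, the rank of its average signal over both dyes among all clones of an array. Spots of cDNA differ in the length and amount of DNA printed, so a percentile describes the spot and does not rank genes by transcript number. The 23 tested clones had a median percentile of 58.9, against 53.3 for all clones tested. Over all 33 clones, tested or not, the median was 49.85 and 16 clones were above percentile 50, the midpoint of the scale. Per class, the median over genes was 54.0 for tau GSTs, 38.7 for phi GSTs, 46.0 for other GSTs, 59.4 for peroxidases and 70.2 for ascorbate peroxidases, with 40.7 for SODB. These medians rest on very few genes. The SD of the class median over 3 replicates was 4.76 for tau GSTs, 9.72 for phi GSTs, 7.81 for other GSTs, 8.22 for peroxidases and 5.90 for ascorbate peroxidases, while the genes of a class were much farther apart: tau GSTs ran from 5.44 to 69.3 and other GSTs from 11.4 to 66.7.

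**Figure D2:**
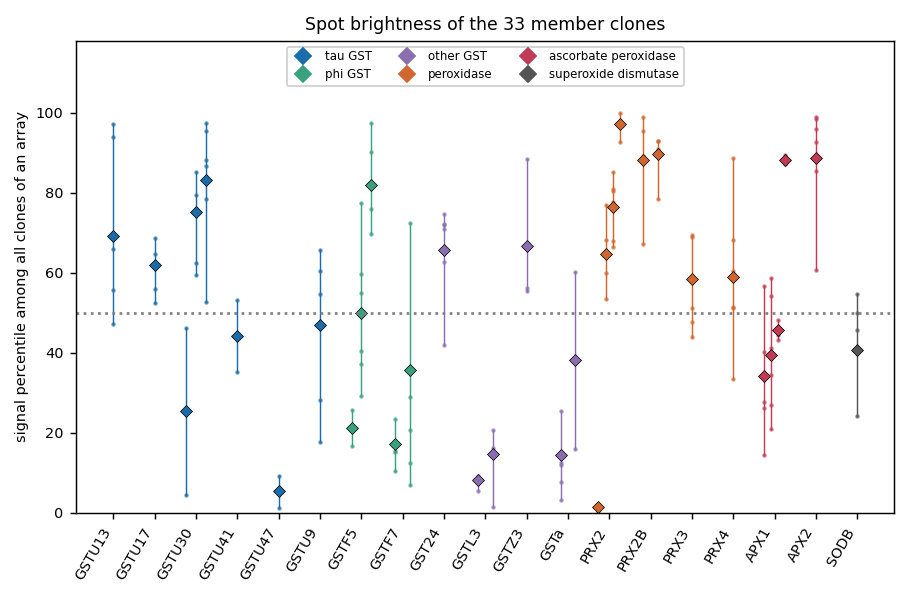
Signal percentile (vertical axis, among all clones of an array) of the 33 clones, grouped by gene on the horizontal axis and coloured by class. Small points are single arrays, diamonds the mean over replicates and vertical lines the range. Clones of 1 gene lie far apart, and PRX2 spans nearly the whole scale.

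The clones of a single gene did not agree in brightness. In the 8 genes with several clones, the distance between the dimmest and the brightest clone had a median of 38.9 percentile points, against a median SD of 6.88 points between replicates of 1 clone. PRX2 was the extreme case, with its 4 clones at percentiles 1.45, 64.6, 76.4 and 97.2. The APX1 clones were at 34.2, 39.4, 45.7 and 88.3, those of GSTU30 at 25.4, 75.2 and 83.1, and those of GSTF5 at 21.2, 49.9 and 81.8. At the other end, the 2 clones of PRX2B were 1.61 points apart, at 88.1 and 89.7. The difference between clones of 1 gene was thus often wider than that between class medians.

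The tau GSTs, which detoxify herbicides and other foreign compounds in crop plants, had line ratios on both sides of 0. GSTU9 had the highest mean of the class, with ratios of 0.02, 0.47 and 0.19 in replicates 1, 2 and 3 (mean 0.22 ± 0.23 SD, n = 3; adjusted p in limma 0.796). Its log2 normalized signal was 12.09, 11.73 and 12.44 in IsoClark, against 12.08, 11.27 and 12.25 in Clark. As labelled, the 3 ratios were above 0. The signals of the lines overlapped across replicates, while each ratio compares the lines within an array. Replicate 2 carried most of the mean, through 0.75 on the array with IsoClark in Cy5 whose dyes are in doubt, and with that array turned GSTU9 was at -0.03 and GSTU30 at 0.09. Its unadjusted limma p was 0.0382 with the signal median and 0.0487 with spots flagged as empty left out (adjusted p 0.781 and 0.748).

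GSTU47 had the lowest mean, with ratios of -0.41, 0.32 and -0.13 (mean -0.08 ± 0.37). It was also the dimmest tested clone of the list, between percentiles 1.25 and 9.23 on the 5 usable arrays and above background on 2 arrays in IsoClark and 3 in Clark. Its replicates did not share a direction. GSTU13, the tau gene with the highest mean percentile (69.3 ± 22.8), had 0.05, 0.02 and -0.00 and the smallest SD of the list, 0.02. This narrow spread arose from arrays that differed: in replicate 3 the array with IsoClark in Cy3 gave 0.14 and the array with IsoClark in Cy5 gave -0.14, and in replicate 2 they gave -0.10 and 0.15. GSTU17 had 0.04, -0.14 and 0.11 (mean 0.00 ± 0.13).

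GSTU30 was represented by 2 tested clones that, as labelled, pointed in opposite directions in every replicate. Clone Gm-r1070-929 had -0.36, -0.28 and -0.08 (mean -0.24 ± 0.15), the lowest mean of all 23 clones, with an unadjusted limma p of 0.109. Its replicate 2 value was made of 0.06 with IsoClark in Cy3 and -0.61 on the array with IsoClark in Cy5 whose dyes are in doubt. Its sign in replicate 2 and its place as the lowest therefore depend on that label. Clone Gm-r1070-3994 had 0.36, 0.10 and 0.07 (mean 0.17 ± 0.16), with replicates 1 and 3 from a single array each. Both were bright spots, above background on 6 arrays in each line, and averaging them left the gene at -0.03 ± 0.05. The remaining clone of GSTU30 was usable on 2 arrays, with ratios of -0.33 in replicate 1 and -0.01 in replicate 3. GSTU41 was usable on 2 arrays, with -0.09 in replicate 1 and 0.29 in replicate 2.

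The phi GSTs, whose members also act on herbicides and on products of lipid oxidation, gave GSTF5 as the gene with the higher mean ratio and the higher percentile. Its clone Gm-r1021-12 had 0.26, 0.23 and 0.13 (mean 0.21 ± 0.07, adjusted p in limma 0.796), with signals of 13.64, 14.26 and 13.65 in IsoClark against 13.38, 14.03 and 13.53 in Clark. Clone Gm-r1021-1714 of the same gene had 0.18, 0.26 and -0.55 (mean -0.04 ± 0.44). The clones ran together in replicates 1 and 2 and parted in replicate 3, where the second clone had -1.06 on the array with IsoClark in Cy5 and -0.04 on its swap partner. The remaining GSTF5 clone was measured in replicate 3 only, at -0.00.

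GSTF7 had 2 clones with means below 0. Clone Gm-r1083-4260 had -0.18, -0.07 and -0.34 (mean -0.19 ± 0.14), and clone Gm-r1083-4259 had 0.29, -0.42 and -0.38 (mean -0.17 ± 0.40). The -0.34 came only from the Cy3-labelled IsoClark array of replicate 3, whose direction is in doubt, so the sign of that clone's mean depends on the label. With that array turned, GSTF7 was at -0.13 over its clones, against -0.18 as labelled. The log2 signal of clone Gm-r1083-4259 was 13.45, 9.75 and 9.83 in IsoClark, against 13.16, 10.17 and 10.21 in Clark. The replicate 1 value, which came from a single array, therefore stood far above the others in both lines alike. With replicate 1 left out this clone had -0.40, with an unadjusted limma p of 0.0466 and an adjusted p of 0.617. Clone Gm-r1083-4260 had -0.35 with no spot flags used, with an unadjusted limma p of 0.0285 and an adjusted p of 0.766.

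Among the other GSTs, GSTZ3 belongs by its name to the zeta class, whose enzyme takes part in tyrosine breakdown, and GSTL3 to the lambda class. GST24 and GSTa carry the aliases GSTF10 and GSTU48 in the annotation of assembly Glycine_max_v4.0. GSTa had the highest mean, with -0.02, -0.05 and 0.51 (mean 0.15 ± 0.32). GSTZ3 had the highest percentile (66.7 ± 18.8), with -0.18, -0.22 and 0.51 (mean 0.04 ± 0.41). In both genes replicate 3 alone was above 0, and GSTZ3 rested on 1 array per replicate.

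GST24 had the lowest mean, with -0.24, 0.15 and 0.07 (mean -0.01 ± 0.21) on 6 usable arrays. With the Cy3-labelled IsoClark array of replicate 3 turned, GSTZ3 was lowest at -0.31, GST24 was at -0.10 and GSTa at -0.07. GSTL3 was dim, its 2 clones at percentiles 8.18 and 14.7. Clone Gm-r1083-1377 had 0.14 and -0.24 in replicates 1 and 2, and the other 0.12 and 0.12 in replicates 2 and 3. With no spot flags used, clone Gm-r1083-1377 had 0.36, with an unadjusted limma p of 0.0247 and an adjusted p of 0.766. On the assembly, GSTU47 and GSTa are neighbours with 0 annotated genes between them. The tested clones of these neighbouring genes were dim, GSTa at percentile 14.3 and GSTU47 at 5.44.

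**Figure D3:**
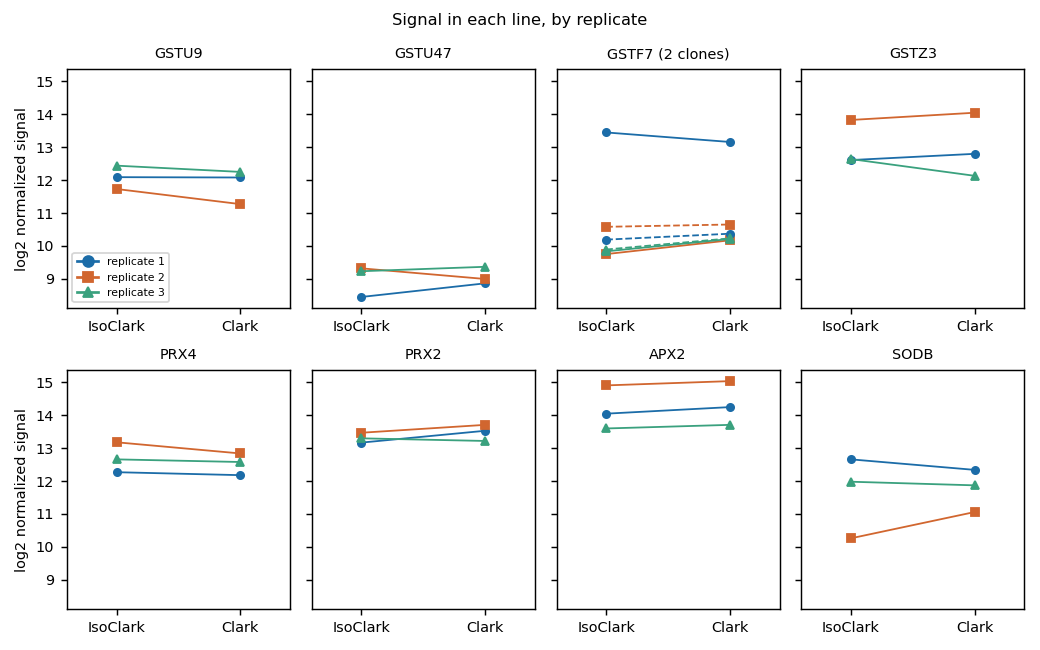
Log2 normalized signal (vertical axis) of 8 genes in IsoClark (left) and Clark (right), with a line joining the lines' values in each replicate. Dashed lines are the second clone of GSTF7. In APX2 the line differences are 0.20, 0.12 and 0.11 while the replicates stand farther apart; in GSTZ3 the joining lines of replicates 1 and 3 cross.

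The peroxidases held the brightest clone of the list, that of PRX2 at percentile 97.2, and 7 of their 8 clones were above percentile 50. PRX2B had the highest mean percentile, with its clones between 67.1 and 98.9 on single arrays. Its clone Gm-r1021-2806 had ratios of -0.18, -0.44 and 0.10 (mean -0.17 ± 0.27), and clone Gm-r1083-4862 had -0.01, -0.35 and 0.09 (mean -0.09 ± 0.23). As labelled, these 2 clones gave the same order of replicates and the same signs. In replicate 2, however, clone Gm-r1083-4862 had 0.06 with IsoClark in Cy3 and -0.77 with IsoClark in Cy5. The dyes of that Cy5-labelled IsoClark array are in doubt, and with it turned PRX2B was at -0.001 over its 2 clones. Clone Gm-r1021-2806 had no usable spot on that array, so its -0.44 and its mean stay the same when the array is turned. PRX3 had -0.16, 0.21 and -0.04 (mean 0.01 ± 0.19).

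PRX4 had the highest mean ratio of the class, with 0.09, 0.34 and 0.08 (mean 0.17 ± 0.15; adjusted p in limma 0.801). Its 6 arrays were all usable and 5 were above 0, the exception being that of replicate 3 with IsoClark in Cy3 at -0.05. Its signals were 12.27, 13.18 and 12.66 in IsoClark, against 12.18, 12.84 and 12.58 in Clark. As labelled, IsoClark was the higher line in each replicate, and across replicates the signals of the lines overlapped. With the Cy5-labelled IsoClark array of replicate 2 turned, the mean of PRX4 was 0.03.

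PRX2 had the lowest mean of the class, from its tested clone Gm-r1070-6412, with -0.36, -0.24 and 0.08 (mean -0.17 ± 0.23). Its brightest clone was usable in replicates 1 and 2, at 0.08 and -0.00, and another in replicates 1 and 3, at 0.07 and -0.16. The dim clone Gm-r1070-8498 gave the largest ratios of all 33 clones, -0.30, -0.85 and -0.999 (mean -0.72 ± 0.37), below 0 on the 4 usable arrays. That clone was above background on only 2 of 6 arrays in IsoClark and on 2 in Clark. With no filter on dim clones its 95% interval ran from -1.11 to -0.32, past a 2-fold difference, with an unadjusted limma p of 0.00378 and an adjusted p of 0.812. The other PRX2 clones averaged -0.17, 0.04 and -0.04.

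The ascorbate peroxidases were APX1 and APX2. APX2 was the brighter gene, at percentile 88.6 ± 10.2, and the lower in ratio, with -0.20, -0.12 and -0.11 (mean -0.15 ± 0.05; adjusted p in limma 0.820). Its signals were 14.05, 14.91 and 13.60 in IsoClark, against 14.25, 15.04 and 13.71 in Clark. The 3 replicates agreed closely, but the arrays within them did not: with IsoClark in Cy3 the ratios were -0.46, -0.27 and -0.29 in replicates 1, 2 and 3, and with IsoClark in Cy5 they were 0.06, 0.02 and 0.06. With the Cy3-labelled IsoClark array of replicate 3 turned, the mean was -0.05.

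APX1 had 3 tested clones with means of -0.17 ± 0.13, 0.11 ± 0.47 and 0.03 ± 0.52, and 1 untested clone at 0.06 in replicate 1 only. The second of these, Gm-r1021-2338, had 0.64, -0.07 and -0.25, and its replicate 1 value was made of 1.20 on the array with IsoClark in Cy3 and 0.07 on the swapped array. Clone Gm-r1083-859 had 0.05, -0.50 and 0.54. Averaged over clones, APX1 was at -0.01 ± 0.26.

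SODB, which encodes the Fe form of superoxide dismutase, had ratios of 0.31, -0.80 and 0.11 (mean -0.13 ± 0.59; adjusted p in limma 0.918). This was the widest spread between replicates of the 23 clones. The replicate 2 value came from a single array, and there the signal was 10.26 in IsoClark against 11.06 in Clark, the lowest for both lines. The replicate 3 value was also from 1 array, that with Cy3-labelled IsoClark, whose direction is in doubt. With that array turned the mean was -0.20. SODB was above background on 5 arrays in IsoClark and 6 in Clark.

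Taken class by class, the median line ratio over genes was 0.00 for tau GSTs, -0.05 for phi GSTs, 0.04 for other GSTs, -0.06 for peroxidases and -0.08 for ascorbate peroxidases. The median over all clones tested was 0.00. The SD of the class median over 3 replicates was 0.01, 0.22, 0.37, 0.10 and 0.11 in the same order of classes. Under the other processing settings the sign of the median turned in tau, phi and other GSTs and in peroxidases, and the median for the 2 ascorbate peroxidase genes stayed between -0.16 and -0.01. The order of the classes depends on the labels. With the Cy3-labelled IsoClark array of replicate 3 turned, other GSTs were lowest at -0.10, and ascorbate peroxidases and phi GSTs were at -0.01. By gene, means were above 0 for 3 tau GSTs, 1 phi GST, 2 other GSTs and 2 peroxidases, and below 0 for 2 tau GSTs, 1 phi GST, 1 other GST, 2 peroxidases, both ascorbate peroxidases and SODB. By clone, 12 of 23 were below 0, or 52.2%, against 49.3% of all clones tested.

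The typical ratio was of the size of the replicate spread. The median absolute ratio was 0.15 for the 23 clones and 0.12 for all clones, while the median SD between replicates was 0.23 for the 23 clones and 0.22 for all. As labelled, the sign was shared by all 3 replicates in 8 of the 23 clones (34.8%), 4 above and 4 below 0, against 29.1% of all clones tested. Those above 0 were GSTU9, GSTU30 clone Gm-r1070-3994, GSTF5 clone Gm-r1021-12 and PRX4. Those below 0 were GSTU30 clone Gm-r1070-929, GSTF7 clone Gm-r1083-4260, APX1 clone Gm-r1021-1938 and APX2. Most of these depend on the arrays whose dyes are in doubt. Turning the Cy5-labelled IsoClark array of replicate 2 would change that replicate's sign in GSTU9, PRX4 and the GSTU30 clone below 0. Turning the Cy3-labelled IsoClark array of replicate 3 would change that replicate's sign in GSTU9, APX2 and the GSTF7 and APX1 clones.

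The arrays of a swap pair gave a further view of the error. Over the 33 clones there were 56 cases in which both arrays of a replicate were usable, and the arrays had the same sign in 24 (42.9%), against 49.0% of 27986 such cases over all clones. By replicate these were 12 of 22, 7 of 14 and 5 of 20 cases, against 53.7%, 49.1% and 45.1% over all clones in replicates 1, 2 and 3. The median absolute difference between the arrays of a pair was 0.29, 0.37 and 0.39 in replicates 1, 2 and 3 for the 33 clones, against 0.29, 0.39 and 0.33 for all clones. Of the 7 tested clones with 6 usable arrays, 0 had 1 sign on all arrays (4.74% of all such clones), and 1, APX2, had 1 sign on the arrays of each dye orientation and opposite signs between orientations (7.68% of all such clones).

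**Figure D4:**
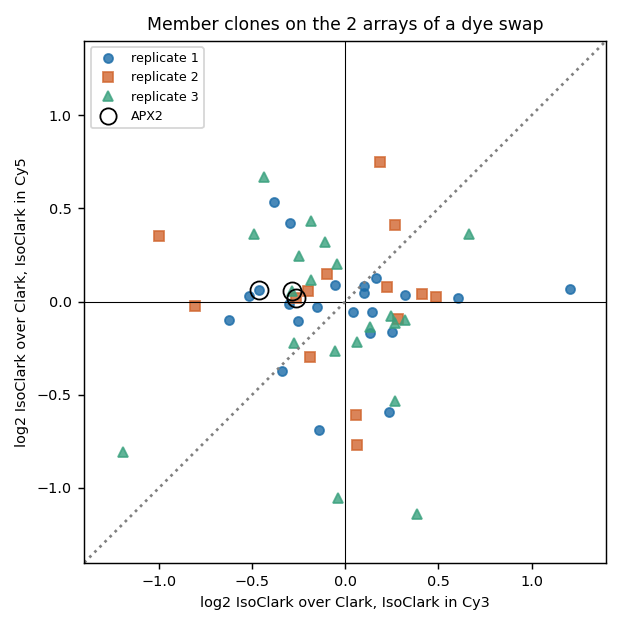
Log2 ratio of IsoClark over Clark on the array with IsoClark in Cy3 (horizontal axis) against the swapped array with IsoClark in Cy5 (vertical axis), for the 33 clones in each replicate where both spots were usable. The dotted line marks equal ratios, and circles mark APX2. Points scatter over all 4 quadrants, with 24 of 56 in the quadrants of equal sign.

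Further genes of the same pathways were read from the array by name. They were 13 genes with 25 clones: the catalases CAT1, CAT4 and CAT5, which break down hydrogen peroxide, glutathione reductase (GR), dehydroascorbate reductase (DHAR3), sulfite reductase (SIR) and the O-acetylserine thiol lyases OAS-TL1, OAS-TL3, OAS-TL4 and OAS-TL7 of cysteine synthesis, the alternative oxidase AOX3, and HGS and SAT1. Of the 17 clones of 10 genes tested, 7 were above 0 and 10 below, with a median of -0.04, and 0 passed the test. CAT1 was at -0.10 ± 0.29, CAT4 at -0.03 ± 0.16, CAT5 at -0.02 ± 0.08, GR at -0.01 ± 0.17 and SIR at -0.15 ± 0.30. DHAR3, OAS-TL1 and OAS-TL7 had no tested clone, and the OAS-TL1 clone had -0.45 and -0.50 in replicates 1 and 2.

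The highest means were those of AOX3, with 0.07, 0.58 and 0.21 (mean 0.29 ± 0.26), and SAT1, with 0.25, 0.36 and 0.23 (mean 0.28 ± 0.07; adjusted p in limma 0.796). One clone of HGS had -0.37, -0.20 and -0.43 (mean -0.33 ± 0.12), the only one of these clones with an unadjusted limma p under 0.05 (0.0346, adjusted p 0.796). In replicate 2 that clone had 0.30 with IsoClark in Cy3 and -0.70 with IsoClark in Cy5, on the array whose dyes are in doubt. Its mean and p therefore depend on that label. The other HGS clones were at -0.04 ± 0.21 and 0.01 ± 0.28. As with GSTU30, the clones of 1 gene did not share the ratio. For AOX3 the replicate 2 value was made of 0.09 with IsoClark in Cy3 and 1.06 on the same doubtful array with IsoClark in Cy5. The replicate 3 value of SAT1 came only from the Cy3-labelled IsoClark array, whose direction is in doubt.

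A further 6 genes carried a GST or peroxidase name only as an alias. LOC547576 (GSTU3), LOC547581 (GSTU21), LOC547583 (GSTU18), LOC548029 (GSTU59) and LOC548030 (GSTU51) would bring the tau genes on the array to 12, GSTa included, and Ep (SPOD4.1) is a peroxidase. Of their 11 clones 4 were tested, and 0 passed. The LOC547581 clones were at -0.00 ± 0.05 and 0.12 ± 0.34, and the Ep clones at 0.17 ± 0.43 and -0.09 ± 0.24. LOC547583, the neighbour of GSTU17 with 0 annotated genes between them, had -0.27 and -0.15 in replicates 1 and 2, against 0.04 and -0.14 for GSTU17.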

How the data were processed

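The authors quantified the spots in ImaGene (version 6.1.0 per the file headers), and the deposited intensity values (signal and local background of each dye, linear scale, not normalized) were the starting point here. The deposited log2 ratios, whose correction and centring are not given in the sources used here, served as an alternative only. By the dyes in the labels, 1 column, that of replicate 3 with Cy3-labelled IsoClark, ran Clark over IsoClark (r = 0.417 with Cy5 over Cy3), and was turned. Column medians ran from -0.28 to 0.11. Gene names belong to the rows of that table, which were tied to clones by 1 fixed number shift per unigene set. The best r with the scanner values was at least 0.590, against at most 0.169 at the next best shift. This best r was taken from 1 array only, the Cy5-labelled IsoClark array of replicate 1. At the same shifts, the Cy3-labelled IsoClark array of replicate 3 had 0.537, 0.380 and 0.496 for Gm-r1021, Gm-r1070 and Gm-r1083. These were the smallest absolute r values of each set. All 19 gene identifiers matched the annotation of Glycine_max_v4.0, and 0 symbols changed. No coordinates are given, as the arrays name no genome build. A cDNA spot can also bind transcripts of close relatives, so members of a family cannot be told apart with certainty.

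In limma version 3.58.1 (R version 4.3.3), background was corrected by normexp (offset 50) and ratios normalized by global loess. Blank or empty spots, which carry no clone, and spots flagged as poor had weight 0. Spots of cDNA flagged as empty in the image analysis were kept. They made up 2.21% to 24.8% of the cDNA spots of an array. Ratios were oriented by the labelled dye and swap pairs averaged. For each clone, lmFit and eBayes set the 3 replicate values against 0, and p-values were adjusted by Benjamini-Hochberg over 13430 clones. These had a value in every replicate and, on 3 or more arrays, a signal in either dye over background by 2 background SD. The code was tested on simulated data with known changes. Poor spots were dropped, so 44.1% of the replicate values of tested clones, and 31.9% of those of the tested clones described here, rest on 1 array. Line signals are log2 values after loess and Aquantile. A gene's ratio is the mean over its tested clones, and its percentile the mean over all its clones. P-values and intervals set the mean ratio against the spread between 3 replicates, which holds noise between arrays. In eBayes the spread of each clone is drawn toward a value shared by all clones tested. The width of an interval therefore does not follow the clone's own SD alone. GSTU13, with an SD of 0.02, had limits of -0.26 and 0.31, and SODB, with an SD of 0.59, had -0.64 and 0.39. With 3 replicates their number limits the precision.

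Every gene of the list is named. Values by replicate are given for the highest and lowest ratio and the highest percentile of each class, and for other genes where clones or arrays differed. The genes, lists and tests were chosen with earlier results of these data known, and the pathway list was trimmed of GRP and GRR1, which only share a prefix.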

Additional observations from a re-analysis of the deposited data

Results flagged for a closer look

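The ratio of APX2 had opposite signs in the dye orientations. Its mean was -0.338 on the 3 arrays with IsoClark in Cy3, each of them below 0, and 0.0462 on the 3 arrays with IsoClark in Cy5, each of them above 0. The difference was -0.38 and was not tested. The pattern rests on the labelled dyes of the Cy3-labelled IsoClark array of replicate 3 (-0.29), which the deposited ratio column runs against; with that array turned its ratio is above 0 and the mean over replicates is -0.05.

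Of the blank and empty spots, which carry no soybean clone, 7.55% of 551 were above background, averaged over arrays and channels. Among the dim clones, PRX2 clone Gm-r1070-8498, GSTU47 and GSTa clone Gm-r1070-8040 were above background on 2, 2 and 2 of 6 arrays in IsoClark and on 2, 3 and 3 in Clark.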

How the results depend on the processing

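No clone of the list passed the adjusted threshold under any of the 19 alternatives. The count over all clones was 0 throughout, except for 5 clones, none of the list, with the day of quantification as a block. The fit to 6 arrays with the replicate block also gave 0 (correlation within replicates -0.163).

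The tau median ratio of 0.00 was -0.049 with print-tip loess, 0.041 with the signal median, -0.049 with no spot flags used, -0.24 with both arrays of every pair required (1 gene), -0.022 with the authors' ratios, -0.042 with the Cy3-labelled IsoClark array of replicate 3 turned and -0.025 with the Cy5-labelled IsoClark array of replicate 2 turned, whose protocol text contradicts its label. Without 1 replicate it ran from -0.045 to 0.024. These shifts exceed an SD of 0.01. The other class ratios moved by less than their SD.

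The phi percentile of 38.7 ran from 35.2 to 49.0 without 1 replicate, and that of ascorbate peroxidases was 63.1 with spots flagged as empty left out. In settings chosen after seeing the data, GSTa counted with tau and GST24 with phi gave 46.9 for tau and 51.0 for phi, and leaving out the dim PRX2 clone gave 69.1 for peroxidases. The cause was not tested.

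Single gene ratios moved by more than their SD in 14 of 273 cases. GSTU13 did so 4 times, APX2 and GSTU30 3 times each, and GSTF7, GSTU47, GSTU9 and PRX2 1 time each, GSTU47 reaching -0.63 with the authors' ratios. Per alternative, 0 to 5 of the genes changed sign.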
